A study of Mus musculus with 10 samples.

Results

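The miR-15/16 family and its relatives were followed in small RNA libraries of mouse hearts under pressure overload. The set holds 9 mature miRNAs, taken by name from 1139 deposited rows. They are mmu-miR-15a-5p, mmu-miR-15b-5p, mmu-miR-16-5p, mmu-miR-195a-5p, mmu-miR-497a-5p and mmu-miR-322-5p, the relative mmu-miR-503-5p, and 2 sister arms, mmu-miR-195a-3p and mmu-miR-503-3p. The species prefix is left out below. None was chosen for its level or its difference in these libraries, though earlier results of these data were known when the set was fixed. The hearts came from male C57Bl6N mice, all of them 1 week after transverse aortic constriction (TAC), which narrows the aorta and loads the left heart with pressure. Libraries labelled CITED4 knockout (n = 5) were compared with libraries labelled floxed control (n = 5), whose gene carries recombination sites. CITED4 is a transcriptional co-regulator. No source used here gives the age of the mice or the cells in which the gene was removed. A miRNA table holds no messenger RNA, so the genotypes are those of the labels.

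miRNAs are short RNAs that guide Argonaute proteins to messenger RNAs, chiefly through the seed, bases 2 to 8 counted from the 5′ end. The miR-15/16 family is known for targeting cell-cycle transcripts such as cyclin D1, cyclin E1 and the checkpoint kinase Chek1, and the survival factor Bcl2. In the mouse heart miR-195a is known to increase after birth, when heart muscle cells leave the cell cycle, and to hold back their division when it is raised. miR-322 and miR-503 are made from a cluster on the X chromosome and are known in muscle for acting on Cdc25a.

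The mature sequences, from RefSeq on GRCm38.p6, are shown because the seed separates the family from its relative miR-503-5p and from the sister arms; capitals mark bases 2 to 8.
miR-16-5p: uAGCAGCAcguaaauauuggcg
miR-195a-5p: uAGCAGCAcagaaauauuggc
miR-15a-5p: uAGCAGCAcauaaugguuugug
miR-15b-5p: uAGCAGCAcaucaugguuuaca
miR-497a-5p: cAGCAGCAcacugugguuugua
miR-322-5p: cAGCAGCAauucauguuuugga
miR-503-5p: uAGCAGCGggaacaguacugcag
miR-195a-3p: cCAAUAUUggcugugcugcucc
miR-503-3p: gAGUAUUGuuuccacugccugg

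The first 6 sequences share 1 seed. Among the 951 of 1139 deposited rows that matched a RefSeq mature sequence by name, 6 carried it, and all 6 are in the set. miR-503-5p has the substitution A8G relative to miR-16-5p (position counted from 1 at the 5′ end), and no other matched row carried its seed. Relative to miR-16-5p without gaps, miR-195a-5p was identical at 19 of 21 positions and miR-15a-5p at 16 of 22. miR-15b-5p was identical at 14, miR-322-5p and miR-503-5p at 12 each, and miR-497a-5p at 11 of 22. Both miR-497a-5p and miR-322-5p begin with U1C. miR-15a-5p and miR-15b-5p were identical to each other at 18 of 22 positions. How reads that match several miRNAs were counted is not given in the sources used here, so levels of such close relatives depend on that step. Some pairs of rows outside the set, such as miR-199a-3p with miR-199b-3p and miR-486a-5p with miR-486b-5p, had the same group means and could not be told apart.

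The members come from 4 genomic clusters (GRCm38). On chromosome 14, within the long noncoding RNA gene Dleu2, 65 bases separate the Mir16-1 hairpin from the mature arms of Mir15a. The span of the whole Mir15a hairpin was not used here, while the distances below are between hairpins. Mir16-1, at 61631880 to 61631972, overlaps a Dleu2 exon, while the mature arms of Mir15a, from 61632038 to 61632096, lie in an intron. Mir15b (69009772 to 69009835) and Mir16-2 (69009902 to 69009996) lie 66 bases apart on chromosome 3, in an intron of Smc4, which encodes a condensin subunit. Mir497 (70234717 to 70234800) and Mir195a (70235042 to 70235135) lie 241 bases apart on chromosome 11. Mir503 (53053984 to 53054054) and Mir322 (53054255 to 53054349) lie 200 bases apart on chromosome X. In GENCODE M21 no gene other than miRNA genes overlapped the last 4 hairpins. Mature miR-16-5p is the same from chromosomes 3 and 14, so its reads cannot be assigned to either hairpin.

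Both arms of the miR-195a and miR-503 hairpins were measured as members, and their positions within the hairpin are shown in capitals.
Mir195a: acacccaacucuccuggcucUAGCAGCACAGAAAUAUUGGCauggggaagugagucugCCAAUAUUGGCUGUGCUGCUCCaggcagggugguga
Mir503: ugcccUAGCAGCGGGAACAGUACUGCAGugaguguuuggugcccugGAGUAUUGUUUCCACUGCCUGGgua

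The libraries held between 7526091 and 18369483 counts. Levels are given as CPM, counts relative to a library total scaled by TMM factors (trimmed mean of M-values), and 3 counts correspond to between 0.164 and 0.370 CPM. Nothing in the labels says that each library was a separate animal, so p-values measure only the spread between libraries, which may be technical. All 6 heart muscle miRNAs examined (miR-1a-3p, miR-133a-3p, miR-133b-3p, miR-208a-3p, miR-208b-3p and miR-499-5p) had counts in all 10 libraries. Counts in every library do not tell the tissue, since miR-9-5p and miR-122-5p, listed as miRNAs of other organs, also had them. By mean level miR-1a-3p was at 351241 and 299919 CPM in controls and knockouts, and miR-9-5p at 316 and 327 CPM. Of 457 miRNAs tested between the groups, 0 were called at an adjusted p under 0.05 in edgeR's quasi-likelihood test, a background of 0%, and 29 (6.35%) had an unadjusted p under 0.05. The number called was 0 in DESeq2 as well, where 45 of 1105 had an unadjusted p under 0.05, and 0 in limma, where 23 of 457 did. In RNA of whole hearts, fewer cells of a type and less RNA per cell cannot be told apart.

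All 9 members had counts in every library and all 9 were tested. None was called in either direction. Their log2 fold changes, knockout over control, ran from -0.36 for miR-195a-3p to 0.13 for miR-15b-5p, with adjusted p values from 0.64 to 0.97 in edgeR's test. At an unadjusted p under 0.05 the count was 0 of 9. A lower mean was seen for 6 of 9, against 46.8% of the 457 miRNAs tested, with a median log2 fold change of -0.09 over the 9 and 0.03 over all 457. The 95% intervals of all 9 held 0. For the 7 members of the 5p arm the intervals together ran from -0.51 to 0.39 on the log2 scale, which is 0.701-fold to 1.31-fold. No member had groups that did not overlap in CPM, a pattern shown by 3 of 457 miRNAs (0.656%).

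**Figure D1:**
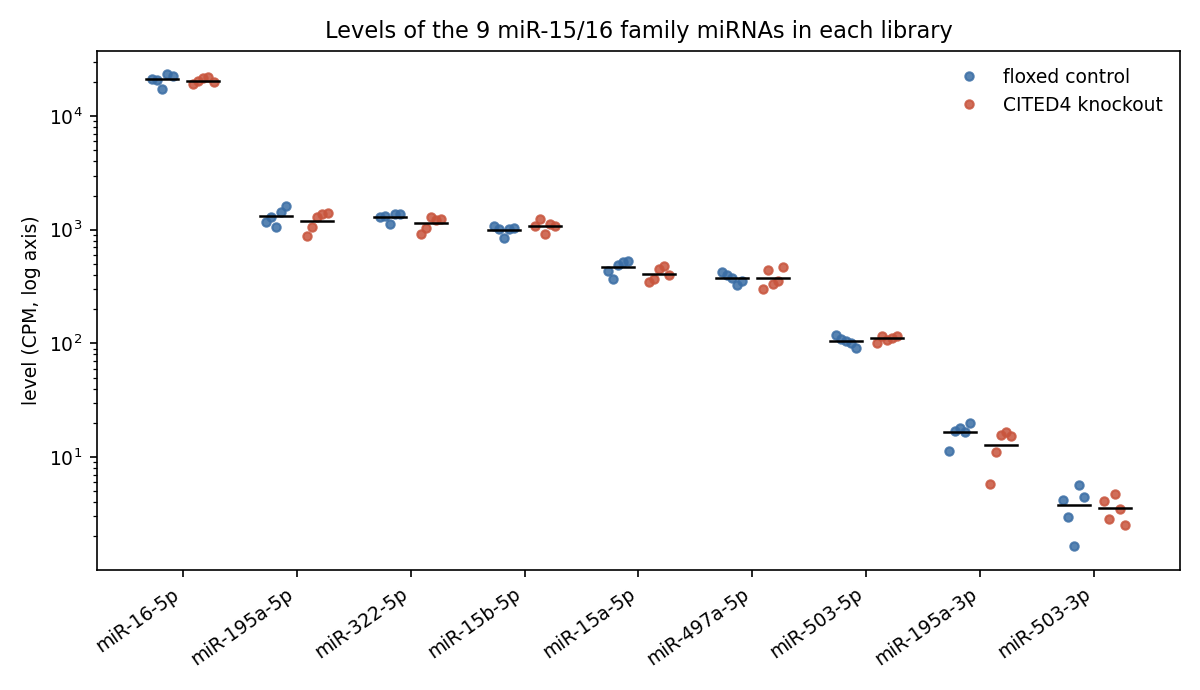
Level of each of the 9 miRNAs (CPM, log axis) in every library, with floxed controls in blue, CITED4 knockouts in red and black bars at the group means (n = 5 each). miR-16-5p stands above the others in all 10 libraries, and the groups overlap for each miRNA.

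miR-16-5p, the member with the highest level, was at 21392, 20906, 17246, 23287 and 22606 CPM in control replicates 1 to 5. In knockout replicates 1 to 5 it was at 19085, 20506, 21442, 21880 and 19881 CPM. The lowest and the highest value were both in the control group, in replicates 3 and 4, and all knockout libraries lay between them. The means were 21087 ± 2346 and 20559 ± 1136 CPM (SD, n = 5, as for all means below). Its log2 fold change was -0.04 ± 0.13 (SE), with a 95% interval from -0.32 to 0.25 (edgeR, adjusted p = 0.90), and the sign turned to 0.09 when library totals alone were used for scaling. It was the 12th most abundant of the 1139 rows by mean CPM.

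miR-15a-5p, made beside miR-16 in Dleu2, was at 430.1, 366, 487, 524 and 534 CPM in controls 1 to 5. It was at 346, 366.8, 448, 481 and 398 CPM in knockouts 1 to 5. Of the knockout libraries, 4 were below the control mean of 468 ± 70.3 CPM, and the knockout mean was 408 ± 56.0 CPM. Its log2 fold change of -0.20 ± 0.14 (SE) had an interval from -0.51 to 0.11 (edgeR, adjusted p = 0.64). miR-15b-5p, made beside miR-16 in Smc4, was at 1070.1, 1021, 839, 1008 and 1031 CPM in controls and at 1071, 1238, 922, 1122 and 1070.2 CPM in knockouts. Control replicate 3 was the lowest of all 10 libraries, and 4 knockout libraries were above the control mean of 994 ± 89.7 CPM. The knockout mean was 1085 ± 114 CPM, a log2 fold change of 0.13 ± 0.12 (SE; edgeR, adjusted p = 0.67). The signs of these 2 close relatives were opposite, and the difference between them was not tested.

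miR-195a-5p, the member linked to the exit of heart muscle cells from the cell cycle, was at 1163, 1292, 1051, 1426 and 1621 CPM in controls. It was at 878, 1061, 1288, 1387 and 1403 CPM in knockouts. Knockout replicate 1 was the lowest and control replicate 5 the highest, and the other 8 libraries of both groups were mixed between them. The means were 1311 ± 223.2 and 1204 ± 228 CPM, a log2 fold change of -0.12 ± 0.17 (SE) with an interval from -0.48 to 0.23 (edgeR, adjusted p = 0.73). Without knockout replicate 1 the log2 fold change was -0.00071, and without control replicate 5 it was -0.02. Its cluster partner miR-497a-5p was at 427, 400.002, 373, 325 and 350.4 CPM in controls and at 299, 439, 333, 350.5 and 472 CPM in knockouts. Both the lowest and the highest library were knockouts, replicates 1 and 5. The means were 375.1 ± 39.9 and 379 ± 73.5 CPM, and its log2 fold change was 0.01 ± 0.15 (SE; edgeR, adjusted p = 0.97).

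miR-195a-3p, the sister arm of miR-195a-5p with a different seed, was at 11.4, 16.8, 17.9, 16.5 and 19.8 CPM in controls and at 5.77, 11.004, 15.7, 16.5 and 15.2 CPM in knockouts. Knockout replicate 1, with 70 counts, was the lowest library, and 4 of 5 knockout libraries were below the control mean. This arm had the most negative log2 fold change of the set, -0.36 ± 0.27 (SE), with an interval from -0.93 to 0.22 (edgeR, adjusted p = 0.64), which became -0.14 without knockout replicate 1.

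miR-322-5p, known in human as miR-424, was at 1289.9, 1321, 1126, 1389 and 1380.0 CPM in controls and at 918, 1031, 1297, 1216 and 1245 CPM in knockouts. All 5 knockouts lay under the control mean of 1301 ± 106 CPM, while control replicate 3 was below 3 of them. That pattern was seen for 1 of the 9 members and for 47 of 457 miRNAs tested (10.3%). The knockout mean was 1142 ± 160.0 CPM, and its log2 fold change was -0.19 ± 0.13 (SE) with an interval from -0.47 to 0.09 (edgeR, adjusted p = 0.64).

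miR-503-5p, the relative with the changed seed, was at 119, 110.2, 106, 101 and 90.2 CPM in controls and at 100.5, 117, 108, 111 and 117 CPM in knockouts. The controls spanned the whole range of the knockouts and beyond it on both sides. The means were 105 ± 10.8 and 111 ± 6.98 CPM, a log2 fold change of 0.07 ± 0.12 (SE; edgeR, adjusted p = 0.80). miR-503-3p was the rarest member, with 14 to 75 counts a library. It was at 4.16, 2.99, 1.64, 5.68 and 4.48 CPM in controls and at 4.12, 2.85, 4.74, 3.51 and 2.52 CPM in knockouts. All knockout libraries again lay within the range of the controls, and the log2 fold change of -0.09 ± 0.33 (SE) had the widest interval of the set, from -0.80 to 0.61 (edgeR, adjusted p = 0.90).

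**Figure D2:**
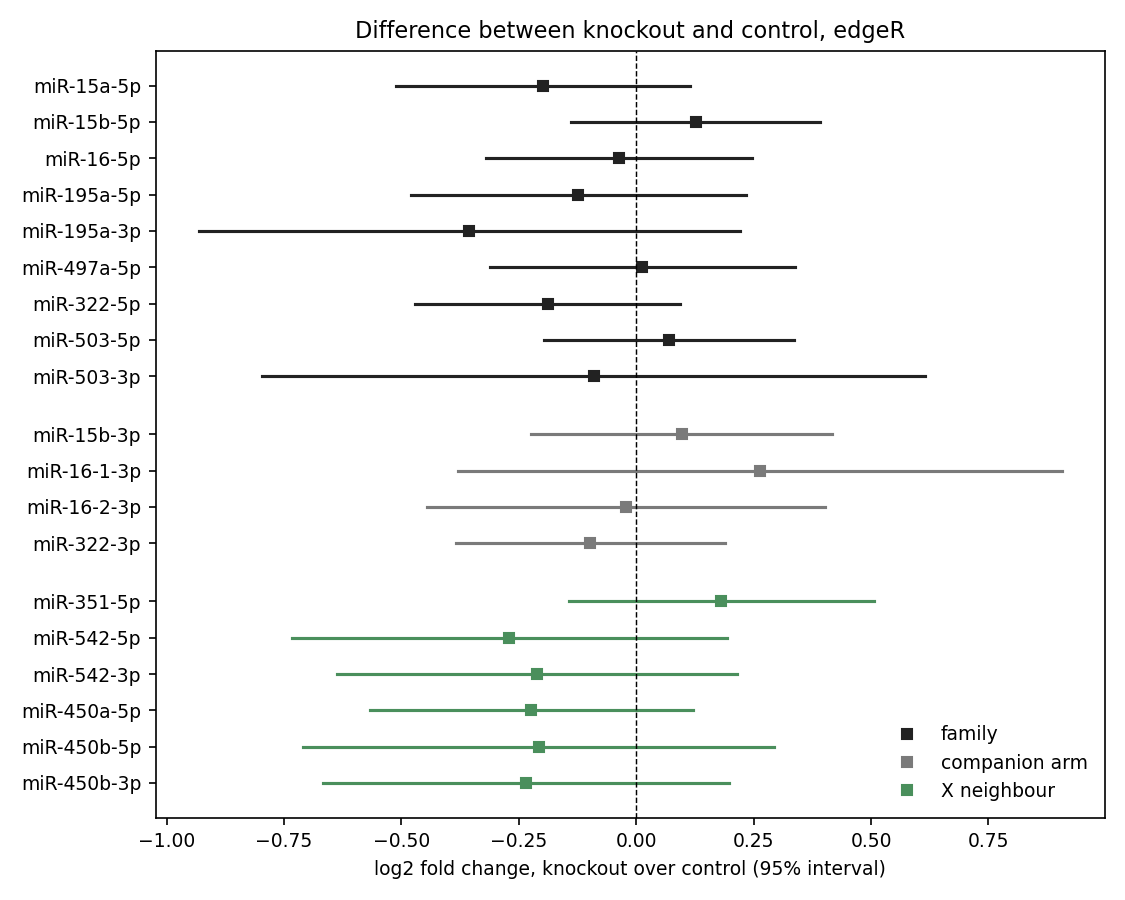
Log2 fold change, knockout over control, with its 95% interval from edgeR, for the 9 family members (black), the tested companion arms of their hairpins (grey) and the tested X-chromosome neighbours of miR-322 and miR-503 (green). All intervals cross the dashed line at 0, with members from -0.36 to 0.13.

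The order of the levels was read within each library. A mature miRNA is counted as 1 read whatever its length, and preferences of the adapter ligation for certain sequences were not measured, so the order is that of reads. miR-16-5p was above every other member in 10 of 10 libraries, at between 13.9 and 21.7 times the next member, miR-195a-5p. miR-195a-5p and miR-322-5p could not be ordered, with miR-195a-5p higher in 5 of 10 libraries and a ratio of means of 1.03. miR-322-5p was above miR-15b-5p in 8 of 10, and miR-15b-5p was above miR-15a-5p in 10 of 10. miR-15a-5p was above miR-497a-5p in 7 of 10 libraries, and miR-497a-5p was above miR-503-5p in 10 of 10. The sister arms miR-195a-3p and miR-503-3p came last, in that order, in 10 of 10.

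The 6 miRNAs that share the seed summed to 25536 ± 2711 CPM in controls and 24775 ± 1460.1 CPM in knockouts. The 10 libraries ran from 21122 CPM in control replicate 3 to 27959 CPM in control replicate 4, so that the control group enclosed all knockouts. As a share of all counts, with no scaling factor, the direction was the opposite, with 2.45% ± 0.28 in controls and 2.58% ± 0.21 in knockouts. miR-16-5p made up 82.5% ± 0.66 of this sum in controls and 83.0% ± 1.16 in knockouts. miR-195a-5p made up 5.12% ± 0.50 and 4.84% ± 0.74, and miR-322-5p 5.11% ± 0.16 and 4.596% ± 0.47. miR-15b-5p made up 3.90% ± 0.22 and 4.39% ± 0.55, while miR-15a-5p and miR-497a-5p each stayed under 2.31% in every library. The composition of the pool of this seed was thus led by the same member, at 81.2% to 84.5%, in all 10 libraries.

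Ratios of counts within a library need no scaling between libraries. The 11 ratios computed compared the 2 arms of 1 hairpin, the 3p arms of the 2 miR-16 hairpins, and partners of 1 cluster, each as log2 with a pseudocount of 0.5. None differed between the groups beyond the spread between libraries: the smallest p of the exact two-sided permutation test was 0.11, and adjusted over the 11 it was 0.54. With 5 libraries against 5 the smallest p this test can give is 0.0079. Adjusted over the 11, 1 ratio alone at that p stays above 0.05, so the adjusted test could not have called a single ratio.

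The 5p arm was the major arm of each of the 6 hairpins for which both arms could be told apart, in all 10 libraries. The ratio of 5p to 3p was smallest for miR-322, with a geometric mean of 12.8 in controls and 12.0 in knockouts and a range from 10.7 to 14.5 over the libraries. miR-322-3p was at 102 ± 8.61 and 94.998 ± 12.0 CPM. For miR-15b the ratio was 22.2 and 22.5, for miR-503 it was 29.6 and 31.6, and for miR-195a it was 79.7 and 98.3. The miR-195a ratio was above the control mean in all 5 knockout libraries, with a log2 difference of 0.30, but this stayed within the spread (exact permutation test, p = 0.21, adjusted p = 0.54). Knockout replicate 1 held the highest ratio, 151, against a range from 58.5 in control replicate 3. For miR-15a the ratio was 556 and 740, on only 4 to 13 counts of miR-15a-3p a library, so its size is imprecise. miR-497a-3p had 0 counts in control replicate 5 and knockout replicate 1 and at most 11 elsewhere, and no size is given for its ratio. A count of 0 allows up to 0.364 and 0.247 CPM (3 counts) in those libraries.

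Since both miR-16 hairpins release the same miR-16-5p, only their 3p arms tell them apart. miR-16-2-3p, from the Smc4 hairpin, averaged 15.4 ± 4.04 CPM over the controls and 15.2 ± 1.19 CPM over the knockouts. miR-16-1-3p, from the Dleu2 hairpin, was at 2.57 ± 0.69 and 3.09 ± 0.84 CPM, with 16 to 51 counts a library. The 3p arm of the Smc4 hairpin was the more abundant in all 10 libraries, with a ratio from 3.20 to 11.7. Its geometric mean was 5.88 in controls and 4.99 in knockouts (exact permutation test, p = 0.56). These ratios are of the 3p arms, whose stability may differ, and do not give the share of miR-16-5p that each hairpin makes.

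Among the partners, the ratio of miR-322-5p to miR-503-5p was 3.43, 3.58, 3.41, 3.78 and 3.93 on the log2 scale in controls 1 to 5. It was 3.19, 3.14, 3.59, 3.45 and 3.41 in knockouts 1 to 5. All 5 knockouts lay under the control mean, though the groups overlapped, and the log2 difference of -0.27 had the smallest p of the 11 ratios (exact permutation test, p = 0.11). The ratio of miR-15b-5p to miR-16-5p was -4.40 ± 0.09 in controls and -4.25 ± 0.18 in knockouts on the log2 scale. That of miR-15a-5p to miR-16-5p was -5.50 ± 0.26 and -5.66 ± 0.13, also with all 5 knockouts below the control mean (exact permutation test, p = 0.14 and 0.25). miR-195a-5p was above miR-497a-5p by 2.42 to 4.63 times over the 10 libraries.

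**Figure D3:**
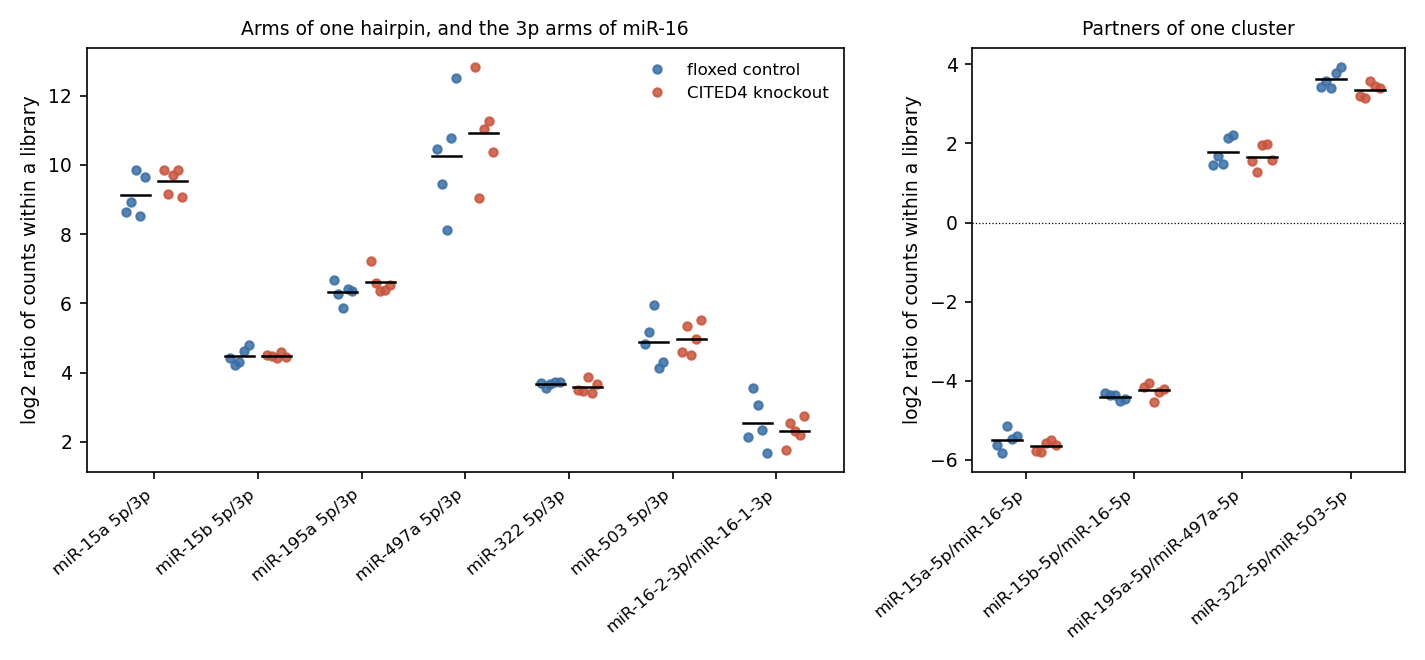
Log2 ratio of counts within each library, for arms of 1 hairpin and the 3p arms of the miR-16 hairpins (left) and for partners of 1 cluster (right), with 1 point per library and black bars at the group means (n = 5 each). The groups overlap for all 11 ratios, and the miR-497a ratio, which rests on 0 to 11 counts of its 3p arm, is the most scattered.

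Partners of a cluster can be processed from a shared transcript, so their levels were compared across the 10 libraries as log2 CPM. For miR-195a-5p and miR-497a-5p Pearson's r was 0.11 and Spearman's rho -0.01 (permutation p = 0.76 and 1.00). For miR-322-5p and miR-503-5p these were -0.13 and -0.21 (permutation p = 0.71 and 0.56). miR-15a-5p and miR-16-5p gave r = 0.39 and rho = 0.60 (permutation p = 0.28 and 0.075), and miR-15b-5p and miR-16-5p r = 0.37 and rho = -0.09 (permutation p = 0.29 and 0.81). Adjusted over the 4 pairs, the p values of r were 0.76, 0.76, 0.58 and 0.58 and those of rho at least 0.30. Without the 2 libraries farthest from the median of the first miRNA, r was -0.30, -0.44, 0.13 and -0.26 in the same order. Centred on each group's mean, r was 0.12, 0.05, 0.37 and 0.47.

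These values depend on single libraries and on the scaling. Without control replicate 3, miR-15a-5p and miR-16-5p gave r = 0.91 (permutation adjusted p = 0.0036), while miR-15b-5p and miR-16-5p gave r = -0.32. Relative to library totals alone, miR-15b-5p and miR-16-5p gave r = 0.93 (permutation adjusted p = 9.2e-04) and miR-322-5p with miR-503-5p r = 0.59. Both members of a pair share their library total.

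**Figure D4:**
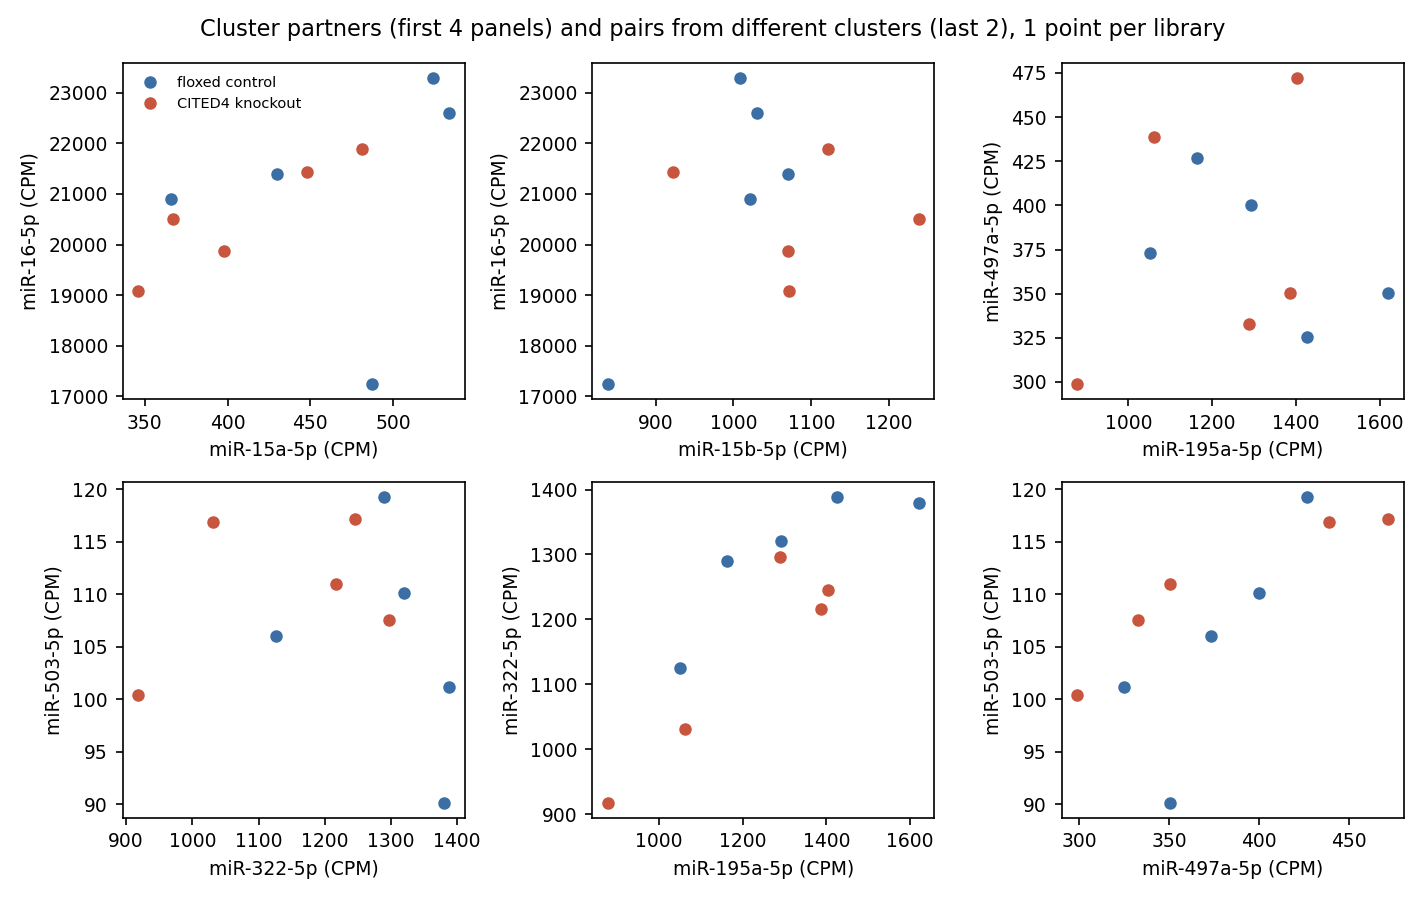
Level of a miRNA against another (CPM on both axes, axes not starting at 0), 1 point per library, with controls in blue and knockouts in red. The first 4 panels are cluster partners and the last 2 pair members of different clusters, miR-195a-5p with miR-322-5p and miR-497a-5p with miR-503-5p; control replicate 3 is the lowest point for miR-16-5p, at 17246 CPM.

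Several pairs from different clusters, chosen after seeing the values and given as a description, had a higher r than the 4 cluster partners on this scale. Centred on group means, miR-195a-5p from chromosome 11 and miR-322-5p from chromosome X had r = 0.91 over 10 libraries, and miR-497a-5p and miR-503-5p, their respective partners, r = 0.76. miR-16-5p had r = 0.71 with miR-322-5p, 0.70 with miR-195a-5p and 0.82 with miR-503-3p, and miR-15a-5p had r = 0.60 with miR-195a-5p. Between the first 2 pairs, r was 0.14 for miR-322-5p with miR-497a-5p and -0.18 for miR-195a-5p with miR-503-5p. The pair of miR-195a-5p and miR-322-5p also varied with the muscle miRNA miR-1a-3p, at r = 0.86 and 0.80, and with the TMM factor, at r = -0.87 and -0.82. For miR-497a-5p and miR-503-5p these were -0.36 and -0.49 with miR-1a-3p, and 0.26 and 0.44 with the factor. The pair was not alone in this: miR-16-5p, miR-15a-5p, miR-195a-3p and miR-503-3p had r = 0.72, 0.70, 0.64 and 0.56 with miR-1a-3p. With the factor these members had r = -0.75, -0.64, -0.65 and -0.56. miR-15b-5p was at -0.11 with miR-1a-3p and at 0.06 with the factor. miR-1a-3p took between 24.8% and 39.3% of all counts. The part of the abundance of miR-1a-3p and of the scaling in these correlations was not tested; relative to library totals alone, miR-195a-5p and miR-322-5p had r = 0.47, below the 0.93 and 0.59 given above (not centred) for the partners miR-15b-5p with miR-16-5p and miR-322-5p with miR-503-5p.

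For each member the 3 miRNAs with the most similar pattern were taken from 275 (276 for miR-503-3p) with a mean of at least 10 CPM, by Pearson's r of log2 CPM centred on group means over 10 libraries. These are the highest of many and carry no p. For miR-15a-5p they were miR-378a-5p, miR-208a-5p and miR-130a-3p, at r = 0.92, 0.91 and 0.91, and for miR-195a-5p they were miR-322-5p, miR-1a-3p and miR-23b-3p, at 0.91, 0.86 and 0.86. For miR-322-5p they were miR-195a-5p, miR-181c-3p and miR-181b-5p (0.91, 0.85 and 0.82), and for miR-195a-3p miR-181c-3p, miR-345-3p and miR-190a-5p (0.91, 0.89 and 0.88). For miR-503-5p they were miR-100-5p, miR-1247-5p and miR-214-3p (0.91, 0.82 and 0.78), and for miR-497a-5p miR-152-3p, miR-574-3p and miR-24-3p (0.83, 0.83 and 0.82). For miR-15b-5p they were miR-132-3p, miR-1983 and miR-421-3p (0.84, 0.77 and 0.74). miR-16-5p was most like let-7d-5p, let-7g-5p and let-7a-5p (0.87, 0.87 and 0.82). miR-503-3p was most like miR-1198-5p, let-7g-5p and let-7d-5p (0.84, 0.83 and 0.83).

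These orders depend on a few libraries and on the scaling. Without the 2 libraries farthest from the median of the member, r was 0.49, 0.47 and 0.35 for miR-16-5p with let-7d-5p, let-7g-5p and let-7a-5p. It was 0.50 and 0.45 for miR-15b-5p with miR-132-3p and miR-421-3p. For miR-503-3p it was 0.39 with miR-1198-5p and 0.55 with let-7d-5p. Relative to library totals alone, r was 0.16 and 0.46 for miR-195a-5p with miR-1a-3p and miR-23b-3p, and 0.14 for miR-322-5p with miR-181b-5p. On that scale miR-16-5p had r = 0.59 with let-7d-5p and 0.06 with let-7g-5p, while miR-497a-5p kept r between 0.91 and 0.93 with its 3 miRNAs.

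With TMM scaling and centring on group means, the cluster partner stood far down this order of likeness for most members. miR-497a-5p was number 137 of 275 for miR-195a-5p, and miR-503-5p was number 141 of 275 for miR-322-5p. miR-16-5p was number 99 for miR-15a-5p and number 30 for miR-15b-5p. In the other direction, miR-15b-5p was number 46 and miR-15a-5p number 72 for miR-16-5p. For miR-497a-5p its partner miR-195a-5p was number 123, and for miR-503-5p its partner miR-322-5p was number 131. These ranks hold for this scaling only: with library totals alone, miR-15b-5p and miR-16-5p had r = 0.93 (not centred).

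A list of 8 held the 6 other arms of these hairpins and the separate miRNAs miR-195b and miR-497b. Of these 8, 6 were in the table, 4 were tested and 0 were called in either direction, with 2 higher and 2 lower means and a median log2 fold change of 0.04. miR-15b-3p averaged 44.9 ± 7.04 CPM in controls and 48.1 ± 4.51 CPM in knockouts, and its log2 fold change was 0.10, beside 0.13 for miR-15b-5p. miR-322-3p, at -0.10 against -0.19 for miR-322-5p, had the same sign as its sister arm in this scaling and turned to 0.01 with library totals only. miR-16-1-3p and miR-16-2-3p were at 0.26 and -0.02. miR-15a-3p and miR-497a-3p had too few counts to be tested, and miR-195b and miR-497b were not analysed here.

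The X-chromosome neighbours of miR-322 and miR-503 were a list of 9, of which 6 were tested and 0 were called, with 1 higher and 5 lower means and a median log2 fold change of -0.22. miR-450a-5p was at 68.7, 83.9, 104, 99.0 and 87.4 CPM in controls and at 58.9, 77.8, 86.8, 86.7 and 68.9 CPM in knockouts. Each of its 5 knockout libraries lay under the control average of 88.5 CPM, with a log2 fold change of -0.22 ± 0.16 (SE; edgeR, adjusted p = 0.64). miR-542-5p and miR-542-3p were at -0.27 and -0.21, and miR-450b-5p and miR-450b-3p at -0.21 and -0.23. Of the 6 tested neighbours, miR-351-5p, next to miR-503, was the 1 with a higher mean, 96.1 ± 17.03 and 109 ± 10.6 CPM, at 0.18 ± 0.15 (SE; edgeR, adjusted p = 0.65). Among the tested miRNAs of this cluster, lower means were thus seen for miR-450a-5p, miR-503-3p and both arms of miR-322, miR-450b and miR-542. Higher means were seen for miR-503-5p and miR-351-5p, and none was past the test. The arms of miR-503 had opposite signs, 0.07 for 5p and -0.09 for 3p. miR-351-5p varied against miR-1a-3p across libraries (r = -0.90 centred on group means), while miR-450a-5p had r = 0.49. With the TMM factor r was 0.89 for miR-351-5p and -0.49 for miR-450a-5p, and the part of the scaling in these values was not tested. miR-351-3p, miR-450a-1-3p and miR-450a-2-3p had 0 to 19 counts a library and were not tested; their means were 0.187 and 0.347, 0.826 and 0.616, and 0.588 and 0.789 CPM in controls and knockouts. The counts of 0 were those of miR-351-3p in control replicates 2 and 5, which allow up to 0.264 and 0.364 CPM (3 counts).

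Other miRNAs known for holding back the division of heart muscle cells were a list of 7, all tested, of which 0 were called, with 1 higher and 6 lower means and a median of -0.19. The smallest p values were those of the muscle miRNA miR-133a-3p, whose log2 fold change was -0.46 ± 0.17 (SE), and of miR-29a-3p, at -0.27 ± 0.15 (SE). Their unadjusted p values were 0.020 and 0.098, and the adjusted p in edgeR's test was 0.64 for both. Of 14 miRNAs known for promoting that division, 8 were tested and 0 were called, with 5 higher and 3 lower means and a median of 0.02. miR-18a-5p of the miR-17-92 cluster was at 0.20 ± 0.15 (SE), and miR-199a-3p, which is also a fibroblast miRNA, at 0.39 ± 0.29 (SE), each with an adjusted p of 0.64 in edgeR's test. Without control replicate 1 the value of miR-199a-3p was 0.64 (edgeR, adjusted p = 0.25).

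Markers of the cell types of a heart were set beside the members. The 6 heart muscle miRNAs summed to between 242925 and 504570 CPM in controls and between 220847 and 387114 CPM in knockouts, with 1 higher and 5 lower means. Most of this sum was miR-1a-3p, at 351241 of a mean of 357078 CPM in controls and 299919 of 304425 CPM in knockouts. All 4 fibroblast miRNAs had higher means in knockout, with sums from 38600 to 108890 CPM and from 52492 to 132710 CPM. Most of that sum was miR-21a-5p, at 52572 of a mean of 67070 CPM in controls and 77287 of 96289 CPM in knockouts. Both endothelial miRNAs had lower means, with sums from 26220 to 35318 CPM and from 25223 to 34443 CPM. Both smooth muscle miRNAs had lower means, with sums from 27826 to 33670 CPM and from 26124 to 32865 CPM. Of the 5 leukocyte miRNAs 2 were higher and 3 lower, with sums from 1562 to 1593 CPM and from 1386 to 1762 CPM. The 3 erythroid miRNAs in the table had lower means, with sums from 13759 to 33016 CPM and from 11532 to 25240 CPM. Nearly all of that sum was miR-486a-5p, at 23545 of a mean of 24266 CPM in controls and 16713 of 17210 CPM in knockouts. Of 5 tested miRNAs of other organs 3 were higher and 2 lower, and all 5 had counts in every library. Among them, miR-9-5p averaged 316 CPM in controls and 327 CPM in knockouts, and miR-122-5p 60.7 and 52.7 CPM. The group means of miR-200a-3p, miR-200b-3p and miR-375-3p lay between 1.64 and 3.51 CPM. The neuronal miR-124-3p, of the same list, had no count in any library. The ranges of all 7 sums overlapped between the groups, and their part in the members' levels was not tested.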

How the data were processed

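Small RNA was sequenced in 10 heart libraries, 5 per genotype. The authors deposited raw read counts per mature miRNA, and a second table whose linear signal is the same count divided by 1 factor per library (largest relative deviation 4.96e-15), a factor equal to the DESeq2 size factor. Per the submitters' processing notes, GRCm38, cutadapt 1.10, STAR, Bowtie and DESeq2 were used, in roles that are not stated. No source used here gives the annotation release or speaks of molecular identifiers, so floors cover counting error only. Columns were matched to libraries by title.

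Counts were fitted with edgeR 4.0.16 in R 4.3.3 (filterByExpr kept 457 of 1139 rows, with 99.99% of counts; TMM; quasi-likelihood test with genotype as the only term; Benjamini-Hochberg over 457, threshold 0.05). log2 CPM used a prior count of 2. The fits were tested on simulated data. Ratios used the exact permutation test over all 252 assignments of 5 libraries to a group and correlations 100000 permutations (scipy 1.17.1). Alternatives were DESeq2 1.42.0, limma 3.58.1 on log2(deposited value + 1), library totals only, no filter, a replicate block, a pseudocount of 1 for ratios, and each library left out. No library looked like a repeat of another: within groups, chi-square divided by its degrees of freedom was 108 or more. Hairpins and mature sequences are from RefSeq (GRCm38.p6), host genes from GENCODE M21.

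The members and all lists were chosen with earlier results of these data known. Named miRNAs are the 9 members, all companion arms and X-chromosome neighbours, the 2 with the smallest p of the lists of repressors and promoters of division, and the 3 most alike to each member.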

Additional observations from a re-analysis of the deposited data

Results flagged for a closer look

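The gap between the extreme library and its nearest neighbour, divided by the range of the 5 libraries, was computed for 22 quantities (9 levels, 11 ratios, the summed seed level and the library total) in each genotype. It passed Dixon's 95% critical value of 0.71 in 2 of 44 sets, and about 1 in 20 pass by chance, which is 2.2 of 44. miR-15b-5p was at 839 CPM in control replicate 3, while controls 1, 2, 4 and 5 held 1008 to 1070.1 CPM, a gap of 0.732 of the range. The log2 ratio of miR-195a-5p to miR-195a-3p was 7.24 in knockout replicate 1, while knockouts 2 to 5 held 6.36 to 6.59, a gap of 0.743 of the range.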

How the results depend on the processing

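The count of miRNAs and of members past the threshold was 0 in all 15 alternative fits, and the count of members at an unadjusted p under 0.05 was also 0 in all 15. Among all miRNAs that last count, 29 of 457, was 102 of 1105 without a filter, 45 of 1105 with DESeq2, 14 with library totals only, 72 with the replicate block, 23 with limma, and 6 to 84 with a library left out. Over all miRNAs the median was 0.03, and 0.14 with library totals only. Members with a lower mean, 6 of 9, ranged from 4 to 7. The log2 fold changes of miR-15a-5p, miR-15b-5p, miR-195a-5p, miR-195a-3p, miR-322-5p and miR-503-5p kept their sign in all 15. Their size moved: with library totals only, miR-322-5p was at -0.084, miR-15a-5p at -0.089, miR-15b-5p at 0.25, miR-503-5p at 0.16 and miR-195a-5p at -0.0052. Without knockout replicate 1, miR-322-5p was at -0.091, miR-15a-5p at -0.12 and miR-503-5p at 0.13. miR-322-5p was at -0.13 without knockout replicate 2 and miR-15b-5p at 0.20 without knockout replicate 3. miR-503-5p was at 0.13 without control replicate 1, at 0.11 without knockout replicate 3 and at 0.030 without control replicate 5. miR-195a-5p was at -0.053 without knockout replicate 2. miR-450a-5p was at -0.12 with library totals only and without knockout replicate 1, and at -0.13 without control replicate 3. miR-351-5p was at 0.27 with library totals only and at 0.12 without control replicate 5, and miR-29a-3p at -0.16 with library totals only. With library totals only, the sign turned for miR-16-5p (0.086), miR-503-3p (0.061), miR-16-2-3p (0.075) and miR-322-3p (0.014). For miR-16-2-3p it also turned without a filter (0.016), with the replicate block (0.016) and with limma (0.017), and for miR-497a-5p with the block (-0.0013) and with limma (-0.0038). With a library left out, log2 fold changes ranged from -0.073 to 0.017 for miR-16-5p, from -0.062 to 0.12 for miR-497a-5p, from -0.25 to 0.11 for miR-503-3p and from -0.13 to 0.14 for miR-16-2-3p. The replicate block changed no call, though the smallest adjusted p over all miRNAs in edgeR's test was 0.15 with it and 0.64 without it. With the block miR-195a-3p was at -0.42 (edgeR, unadjusted p = 0.055). Labels do not say what a replicate number marks, and 3 of 5 same-number pairs had deviations correlated above 0.1. For replicates 1 to 5 that r was 0.45, 0.38, -0.08, 0.40 and -0.12. Of the 11 ratios 0 passed in all 12 alternatives, with adjusted p values in the exact permutation test from 0.087 to 0.98. Passing was out of reach for 1 ratio alone, since the smallest possible p of 0.0079 becomes 0.087 when adjusted over 11. With the replicate block, which flips the signs of 5 pairs, no p under 0.05 was possible. The lowest value was that of miR-15b-5p to miR-16-5p without knockout replicate 3. There the controls held -4.53 to -4.32 and the knockouts -4.29 to -4.05 on the log2 scale. With a library left out the log2 difference ranged from -0.044 to 0.10 for miR-15b 5p/3p, from -0.090 to 0.37 for miR-503 5p/3p and from -0.46 to 0.011 for the 3p arms of miR-16. The correlations of cluster partners depended on the scaling: with library totals only, r was 0.93 for miR-15b-5p and miR-16-5p and 0.59 for miR-322-5p and miR-503-5p. With a library left out, r ranged from 0.24 to 0.91 for miR-15a-5p and miR-16-5p, from -0.32 to 0.50 for miR-15b-5p and miR-16-5p, from -0.38 to 0.26 for miR-195a-5p and miR-497a-5p and from -0.52 to 0.18 for miR-322-5p and miR-503-5p. For these changes the cause was not tested. Few counts limit the ratios of miR-15a, miR-497a and miR-503 and the 3p arms of miR-16.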
